A study of Caenorhabditis elegans with 9 samples.

Results

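The 10 genes described here, *che-2*, *che-3*, *che-11*, *che-13*, *osm-1*, *osm-5*, *osm-6*, *bbs-1*, *bbs-8* and *daf-10*, encode parts of the transport machinery of sensory cilia. They were chosen by name, and each was found among the 40127 named entries of the expression table. Of the 10 genes, 9 had an entry of their own. The remaining gene, *bbs-8*, shared 1 entry with T25F10.4, so the value given for *bbs-8* belongs to both genes and could not be read apart.

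Expression was measured by mRNA sequencing of whole *C. elegans* hermaphrodites of 3 genotypes, with 3 libraries each. The genotypes were *daf-1*(*m40*), which carries a mutation in the type I TGFβ receptor of the dauer pathway, the double mutant *daf-1*(*m40*); *daf-3*(*mgDf90*), which in addition carries a deletion of the Smad gene *daf-3*, and wild-type N2. Animals of all 3 genotypes ate NA22 *E. coli*, reached the L4 larval stage at 16 °C, and spent 25 h at 25 °C before harvest, a time taken from the sample labels. Each library came from 250 mg of pooled animals. By the sample titles, each of the batches 1, 2 and 3 held 1 library of every genotype, so that the replicate number is the batch number. Both alleles are heritable and so present in every cell, and the double mutant was made by crossing. Levels are in FPKM, fragments scaled to exon length and to library size, so that levels of different genes can be compared.

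Cilia are built by intraflagellar transport (IFT), in which kinesins carry trains of IFT-A and IFT-B protein complexes and their cargo to the ciliary tip and a dynein carries them back. The BBSome, a coat-like complex, rides on these trains and links them to membrane cargo. In *C. elegans*, cilia are found on sensory neurons only, among them the neurons that release the TGFβ ligand DAF-7, and loss of these genes leaves animals with short or absent cilia and defects in chemosensation, osmotic avoidance or dye filling. The RFX factor DAF-19 is the known activator of most of them.

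The labels were first checked against the mutated genes. *daf-3* was listed at 0, 0.0147 and 0 FPKM in the double mutant libraries of batches 1, 2 and 3, against 19.9, 22.3 and 20.6 FPKM in *daf-1* and 19.2, 18.8 and 22.5 FPKM in N2. Transcripts of *daf-1* were present in all 9 libraries, at 12.8 to 14.5 FPKM in the 6 libraries with the *m40* allele and 21.6 to 23.7 FPKM in N2. FPKM totals ran from 748170 to 959313 per library, and between 15894 and 17015 named entries were above 0. In the study's qPCR of batch 3, all genes tested rose in *daf-1*, but *abu-8*, *pqn-74* and *sodh-1* showed no matching drop in the double mutant. The study left out double mutant replicate 3 as an outlier in a principal component analysis, and held that the qPCR underlined this possibility. Comparisons between genotypes below therefore come from the other 8 libraries unless all 9 are named. Of 12 markers of ciliated sensory neurons, none was at 0 throughout, but the cyclic nucleotide channel subunit *tax-4* and the TRPV channel *ocr-2* stayed under 0.5 FPKM in all 9 libraries. In these bulk samples of whole animals, fewer ciliated neurons, less RNA per neuron and more RNA from other tissues cannot be told apart.

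In every genotype the ciliary transport genes were low, and they moved together. Their summed level was 13.7, 14.03 and 17.5 FPKM in *daf-1* batches 1, 2 and 3, against 4.33, 6.16 and 17.8 FPKM in the double mutant and 9.66, 8.75 and 17.4 FPKM in N2. The 2 lowest libraries were thus double mutant batches 1 and 2. The 3 libraries of batch 3 reached nearly the same sum in all genotypes, and each was the highest of its genotype. Single genes spanned between 1.62-fold (*osm-1*) and 16.1-fold (*che-11*) from the lowest to the highest of the 9 libraries.

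**Figure D1:**
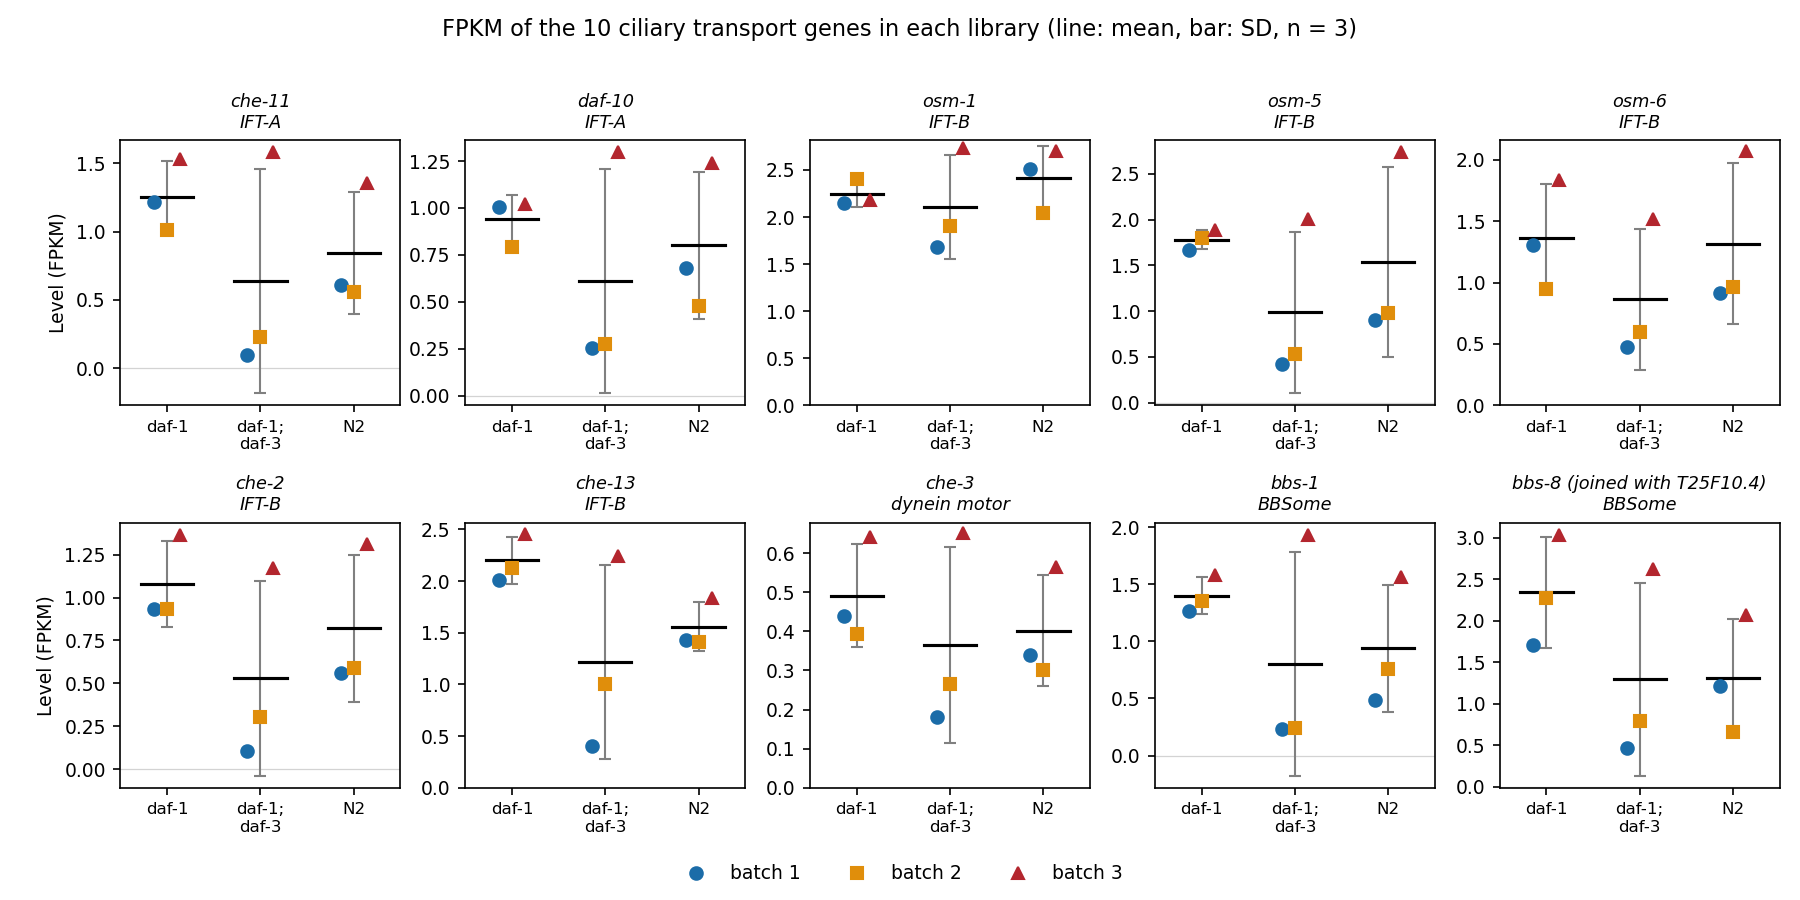
FPKM of each ciliary transport gene in *daf-1*, double mutant (drawn as *daf-1*; *daf-3*) and N2 libraries, with 1 panel a gene, symbols for batches 1 to 3, a line at the mean and a bar for the SD (n = 3, the outlying double mutant batch 3 included, so that some bars reach below 0). In the double mutant, batch 3 stands above batches 1 and 2 for all 10 genes, for *che-11* at 1.58 FPKM against 0.098 and 0.231 FPKM.

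Both IFT-A genes, needed for the return journey of the trains, followed this pattern. *che-11* (V:12144244-12150707 in WBcel235, minus strand, 20 exons) had 1.22, 1.01 and 1.53 FPKM in *daf-1* batches 1, 2 and 3, against 0.098, 0.231 and 1.58 FPKM in the double mutant and 0.611, 0.558 and 1.36 FPKM in N2. Its level in double mutant batches 1 and 2 lay below every other library, whereas batch 3 of the same genotype was the highest of all 9. *daf-10* (IV:9136933-9146211, minus strand, 19 exons) had 1.01, 0.790 and 1.02 FPKM in *daf-1*, against 0.253, 0.276 and 1.298 FPKM in the double mutant and 0.681, 0.480 and 1.24 FPKM in N2. Here too batches 1 and 2 of the double mutant were the 2 lowest libraries, and *daf-1* overlapped N2.

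The 5 IFT-B genes encode subunits of the complex of outward transport, without which cilia are hardly built. *osm-5* (X:2984263-2991478, plus strand, 15 exons) had 1.67, 1.80 and 1.88 FPKM in *daf-1*, against 0.424, 0.529 and 2.003 FPKM in the double mutant and 0.903, 0.980 and 2.74 FPKM in N2. Its *daf-1* values were tightly grouped, and the single highest value was N2 batch 3. *che-2* (X:481450-486504, plus strand, 14 exons) had 0.934, 0.935 and 1.37 FPKM in *daf-1*, against 0.108, 0.306 and 1.17 FPKM in the double mutant and 0.560, 0.588 and 1.31 FPKM in N2. Its 3 highest libraries were the 3 of batch 3. *che-13* (I:10506998-10515586, minus strand, 9 exons) had 2.01, 2.13 and 2.46 FPKM in *daf-1*, against 0.407, 1.01 and 2.24 FPKM in the double mutant and 1.43, 1.41 and 1.83 FPKM in N2. It was the only one of the 10 genes whose 3 *daf-1* libraries all lay above the 3 of N2, an order that 22.2% of tested entries showed.

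*osm-6* (V:11924621-11927446, minus strand, 11 exons) had 1.303, 0.945 and 1.83 FPKM in *daf-1*, against 0.473, 0.595 and 1.52 FPKM in the double mutant and 0.915, 0.966 and 2.07 FPKM in N2. *daf-1* and N2 overlapped throughout, and double mutant batches 1 and 2 were again lowest. *osm-1* (X:16540674-16551211, plus strand, 25 exons) had 2.14, 2.41 and 2.18 FPKM in *daf-1*, against 1.69, 1.91 and 2.73 FPKM in the double mutant and 2.51, 2.04 and 2.70 FPKM in N2. It varied least of the 10 genes between its lowest and highest library, and it was the only one whose *daf-1* batch 3 library was not the highest of its genotype.

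The dynein heavy chain *che-3* (I:8062007-8081671, minus strand, 48 exons), the motor of the return journey, was the lowest of the 10 genes in *daf-1* and N2, with 0.439, 0.393 and 0.642 FPKM in *daf-1*, against 0.180, 0.266 and 0.651 FPKM in the double mutant and 0.340, 0.300 and 0.564 FPKM in N2. Only its 3 libraries of batch 3 reached the 0.5 FPKM that an entry needed in 2 libraries to be tested, so it entered the tests through that batch alone.

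Among the BBSome genes, *bbs-1* (I:14371138-14376086, minus strand, 9 exons) had 1.27, 1.36 and 1.58 FPKM in *daf-1*, against 0.233, 0.242 and 1.94 FPKM in the double mutant and 0.490, 0.759 and 1.56 FPKM in N2. Double mutant batches 1 and 2 nearly coincided, far below the rest, and batch 3 of that genotype was the highest library. The entry of *bbs-8* (V:6762467-6765072, minus strand, 9 exons) and T25F10.4 had 1.71, 2.27 and 3.04 FPKM in *daf-1*, against 0.461, 0.795 and 2.62 FPKM in the double mutant and 1.21, 0.662 and 2.07 FPKM in N2. With N2 batch 2 below double mutant batch 2, this was the only entry of the 10 whose 2 lowest libraries were not both the double mutant.

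Read across the 10 genes, double mutant batches 1 and 2 lay below all 3 *daf-1* libraries for 10 of 10 (30.3% of tested entries did so), below all 3 N2 libraries for 9 of 10 (22.3% of entries), and below all 7 other libraries for 9 of 10 (15.3% of entries). *che-11*, *daf-10*, *che-2*, *che-3* and *bbs-1* were below 0.5 FPKM in both of these double mutant libraries. Among the 8 libraries they passed the filter through *daf-1* and N2 alone, which favours this order. Batch 3 held the highest library of each genotype for 8 of the 9 genes that reached 0.5 FPKM in 2 libraries of the other batches (*che-3* did not), an arrangement found in 17.1% of such entries. Over the 9 libraries the 45 pairwise correlations between these genes on the log2(FPKM + 0.25) scale ran from 0.73 to 0.99 with a median of 0.92, and *osm-1* had the lowest median correlation with the others, at 0.76. All 45 pairs share the same 9 libraries, so these coefficients describe a common order of libraries.

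The first comparison asked how loss of *daf-3* altered these genes in animals already mutant for *daf-1*. In the *daf-1* vs. double mutant dataset, 7 of 10 genes were differentially expressed (DEG, at least 2-fold with a Benjamini-Hochberg adjusted p below 0.05 in limma), and all 7 were higher in *daf-1*. Of all 13751 entries tested, 11.2% were DEGs higher in *daf-1* (1543) and 1.43% were lower (197). After quantile normalisation the split was 860 higher and 528 lower. The fitted differences of the 10 genes had a median of 1.46 on the log2 scale, against 0.00026 over all entries tested. All 10 were positive, and 8 of 10 (not *osm-1* and *che-3*) stayed so after quantile normalisation, with a median of 0.85 and 2 DEGs.

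The 7 DEGs came from all complexes except the dynein. Of the IFT-A genes, *che-11* rose by 1.86 ± 0.38 (log2 difference ± SE, limma adjusted p = 0.0101) and *daf-10* by 1.20 ± 0.35 (limma adjusted p = 0.0293). Of the IFT-B genes, *che-2* rose by 1.56 ± 0.39 (limma adjusted p = 0.0185), *osm-5* by 1.48 ± 0.41 (limma adjusted p = 0.0243) and *che-13* by 1.43 ± 0.31 (limma adjusted p = 0.0123). The BBSome genes *bbs-1* and *bbs-8* rose by 1.76 ± 0.38 (limma adjusted p = 0.0125) and 1.55 ± 0.42 (limma adjusted p = 0.0231), *bbs-8* in its entry shared with T25F10.4. The 3 genes that did not pass were *osm-6* at 1.01 ± 0.38 (limma adjusted p = 0.0673), *che-3* at 0.64 ± 0.33 (limma adjusted p = 0.159) and *osm-1* at 0.28 ± 0.21 (limma adjusted p = 0.305). Since a pseudocount of 0.25 FPKM was added to low values, these differences understate the ratio of the levels. For *che-11*, *daf-10*, *che-2*, *che-3* and *bbs-1*, double mutant batches 1 and 2 both lay below 0.5 FPKM. In the 8 libraries these genes thus passed the filter through *daf-1* and N2 alone, where they were higher.

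This result rested on the library left out. With all 9 libraries 0 of 10 genes were DEGs in limma, 0 of 10 had an unadjusted p below 0.05 (7.64% of entries did, higher in *daf-1*), and the differences shrank to between 0.10 and 1.14 (adjusted p from 0.252 to 0.783). The share of all entries that were DEGs higher in *daf-1* was then 0.64%. With batch as a block in all 9, 0 of 10 were DEGs in limma again (0.863% of entries), while 7 of 10 had an unadjusted p below 0.05 (15% of entries, higher in *daf-1*). Among the 8 libraries, leaving out double mutant replicate 1 also ended every call in limma (3.55% of entries), with 7 of 10 genes at an unadjusted p below 0.05 (17.1% of entries). Without *daf-1* replicate 3 there were 3 DEGs of the 9 genes tested (6.78% of entries), and without *daf-1* replicate 2 there were 4 of 10 (8.99% of entries). With batch as a block in the 8 libraries, 6 of 10 genes were DEGs (9.49% of entries), and *daf-10* was not, at 1.03 (limma adjusted p = 0.0517).

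**Figure D2:**
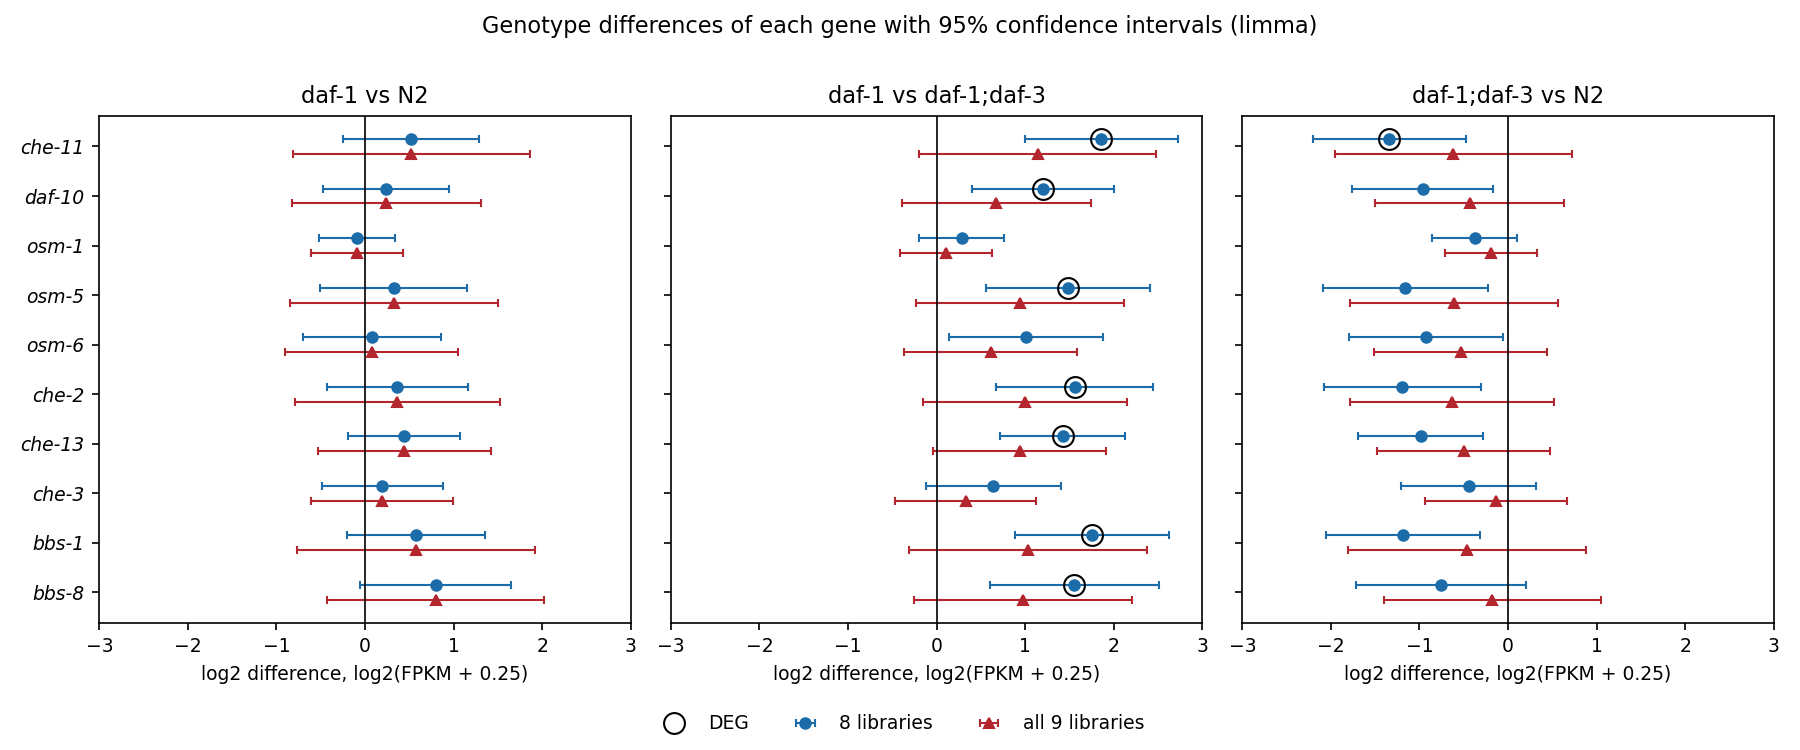
Difference of each gene in log2(FPKM + 0.25), with its 95% confidence interval from limma, in the 3 genotype comparisons, from 8 libraries (circles) and all 9 (triangles). Open rings mark DEGs, 7 in *daf-1* vs. double mutant and 1 in double mutant vs. N2, all of them with 8 libraries.

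The second comparison asked how the *daf-1* mutation alone altered these genes. In the *daf-1* vs. N2 dataset, 0 of 10 genes were DEGs in limma, and 0 of 10 had an unadjusted p below 0.05, whereas 6.27% of all entries were DEGs higher in *daf-1* (862), 0.953% were DEGs lower (131), and 20.6% were higher at an unadjusted p below 0.05. After quantile normalisation the DEGs among all entries were 563 higher and 355 lower. With all 9 libraries 0 of 10 genes were DEGs again, against 3.97% of entries higher in *daf-1*. The fitted differences ran from -0.09 for *osm-1* to 0.80 for the joined *bbs-8* entry with a median of 0.35, and the adjusted p from 0.129 to 0.872. Of the 10 differences 9 were positive, but after quantile normalisation 4 were, with a median of -0.07. The 95% intervals of *bbs-1* (-0.21 to 1.35) and *che-11* (-0.25 to 1.29) included both a 2-fold increase and no difference. That of *osm-1* (-0.52 to 0.34) did not reach 2-fold in either direction. Without N2 replicate 3, 3 of the 9 genes tested were higher past the adjusted threshold (18.4% of entries were), namely *osm-5* at 0.77, *bbs-1* at 0.93 and the *bbs-8* entry at 1.13, of which the last was a DEG (8.92% of entries).

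The third comparison set the double mutant against the wild type. In the double mutant vs. N2 dataset, 1 of 10 genes was a DEG, and 5.34% of all entries were DEGs lower in the double mutant (3.56% were higher). That gene was *che-11*, which fell by 1.34 on the log2 scale (SE 0.38, limma adjusted p = 0.0439). The other 9 differences were between -1.19 (*che-2*, limma adjusted p = 0.0707) and -0.38 (*osm-1*, limma adjusted p = 0.270), and 7 of the 10 genes had an unadjusted p below 0.05, where 16.5% of entries did so in that direction. All 10 differences were negative with or without quantile normalisation. In the 8 libraries *che-11*, *daf-10*, *che-2*, *che-3* and *bbs-1* passed the filter through *daf-1* and N2 alone, which favours this direction. The call on *che-11* was lost in limma with all 9 libraries (-0.62, adjusted p = 0.697, 0.489% of entries DEGs lower), with batch as a block (-1.12, adjusted p = 0.0669), and when any 1 of the 8 libraries was left out (adjusted p from 0.051 to 0.171). Without double mutant replicate 2 the single DEG was *che-13* (-1.45, limma adjusted p = 0.027, 3.48% of entries DEGs lower), and without N2 replicate 1 it was *bbs-1* (-1.47, limma adjusted p = 0.0306, 6.6% of entries). These 3 comparisons share libraries with each other, so they are not independent measurements of the same difference.

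Because the titles place all 3 genotypes in each batch, the differences could also be read within a batch. The titles do not say whether same-numbered populations were grown or processed together. *daf-1* minus double mutant had a median over the 10 genes of 1.48 in batch 1 and 1.04 in batch 2, with 10 of 10 positive in both, but of -0.03 in batch 3, where 4 of 10 were positive. *daf-1* minus N2 had a median of 0.43 in batch 1 (9 of 10 positive), 0.51 in batch 2 (9 of 10) and 0.03 in batch 3 (6 of 10). For double mutant minus N2 the medians were -0.83 in batch 1 (0 of 10 positive), -0.50 in batch 2 (1 of 10) and 0.10 in batch 3 (7 of 10). The separation of genotypes seen in batches 1 and 2 was therefore not seen in batch 3.

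For *bbs-1*, *daf-1* minus double mutant was 1.65, 1.71 and -0.26 in batches 1, 2 and 3. For *che-11* it was 2.08, 1.39 and -0.04, and for *osm-5* it was 1.51, 1.39 and -0.08. *osm-1* had 0.31, 0.30 and -0.30. Fitted with batches 1 and 2 alone, in which *che-3* did not pass the filter, 7 of 9 genes were DEGs in *daf-1* vs. double mutant (9.34% of entries), or 5 of 9 with batch as a block (9.08% of entries). In *daf-1* vs. N2 there were then 0 DEGs of 9 in limma (5.17% of entries higher), with 3 genes at an unadjusted p below 0.05 (20.2% of entries higher). In double mutant vs. N2 there were 0 DEGs of 9 in limma (3.49% of entries lower), with 5 genes at an unadjusted p below 0.05 (13.3% of entries lower).

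**Figure D3:**
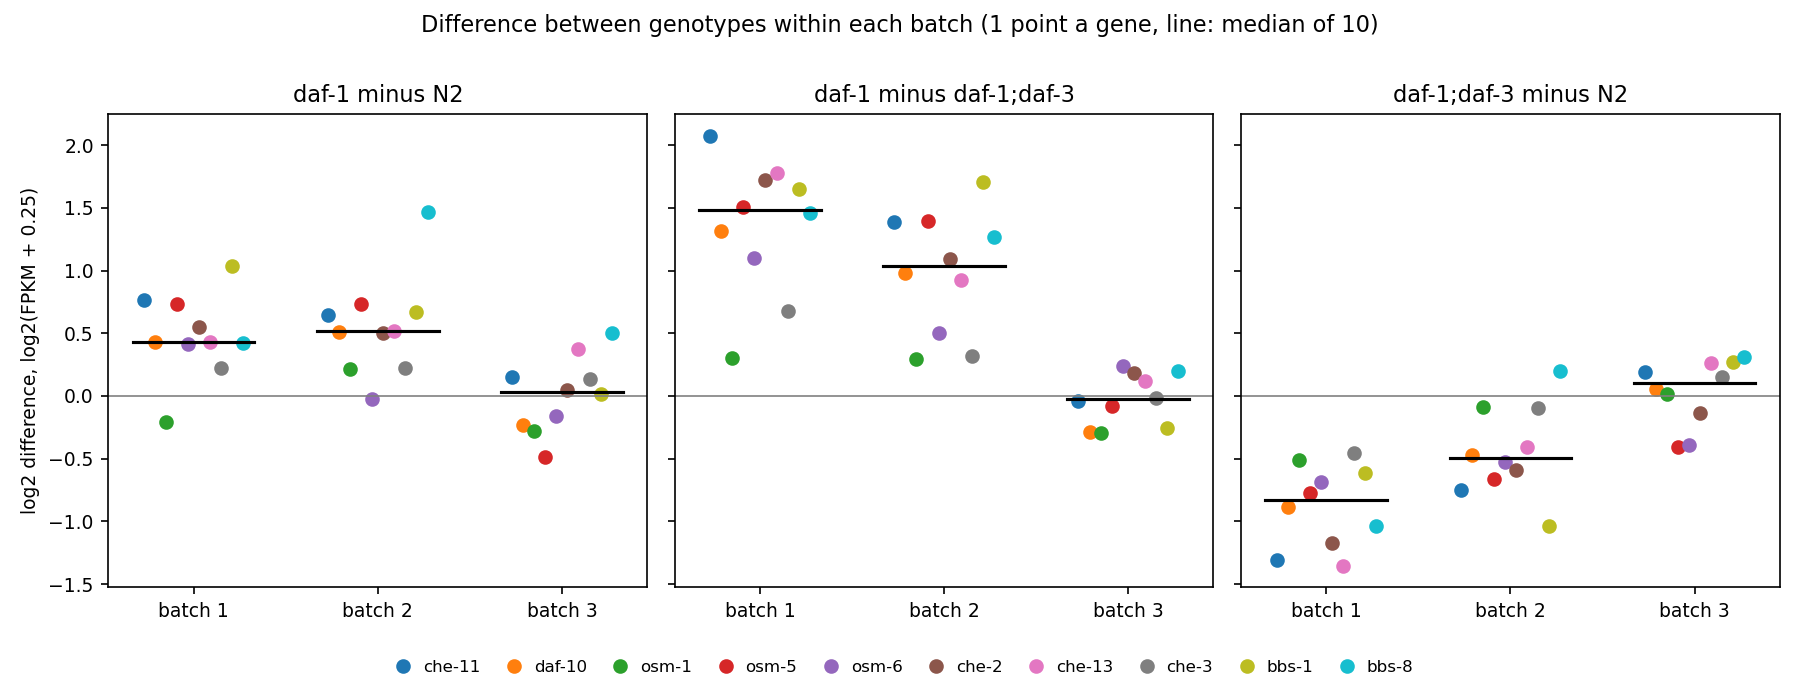
Difference in log2(FPKM + 0.25) between genotypes within batches 1, 2 and 3, 1 point a gene, with the median of the 10 genes as a line. For *daf-1* minus double mutant the medians are 1.48, 1.04 and -0.03.

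The difference between batches was itself tested with all 9 libraries, as the genotype difference in batch 3 minus that in batches 1 and 2. For *daf-1* vs. double mutant it was -1.93 ± 0.47 for *bbs-1*, -1.77 ± 0.54 for *che-11*, -1.53 ± 0.39 for *osm-5* and -1.44 ± 0.49 for *daf-10* (SE). In limma 0 of 10 genes passed the adjusted threshold (adjusted p from 0.129 to 0.629), where 2% of entries passed, and 4 of 10 had an unadjusted p below 0.05, where 21.5% of entries did. For *daf-1* vs. N2 and double mutant vs. N2 the numbers of genes past the adjusted threshold were 0 and 0 (0.00719% of entries in each). At an unadjusted p below 0.05 there was 1 gene, *osm-5* at -1.22 ± 0.39, in *daf-1* vs. N2 (3.47% of entries) and 0 in double mutant vs. N2 (13.2% of entries).

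Across genotypes, the mean of batch 3 was set against that of batches 1 and 2 with all 9 libraries. *che-3*, which passed the filter through batch 3 alone, had to differ and is left out of the counts that follow. For the other 9 genes batch 3 was higher throughout, with a median difference of 1.02 on the log2 scale and a range from 0.24 (*osm-1*) to 1.17 (*che-11*). In limma with genotype as a term, 0 of 9 genes passed the adjusted threshold, where 0.0216% of all entries did, and 7 of 9 had an unadjusted p below 0.05, where 17.2% of entries that passed the filter without batch 3 did so in that direction. The smallest p was that of *osm-6* (0.92 ± 0.22, unadjusted p = 0.00411, limma adjusted p = 0.1). Without *daf-1* replicate 3, *osm-5* (1.48) and *bbs-1* (1.62) passed, both at a limma adjusted p of 0.0426, where 9.11% of entries passed in that direction. With the 8 libraries the median was 0.67 and 2 of 9 genes had an unadjusted p below 0.05 (9.43% of entries), so that double mutant replicate 3 supplied part of the difference. After quantile normalisation 8 of 9 differences were positive, and that of *osm-1* was not. What set batch 3 apart is not given in the sources used here.

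The other genes of the same machinery were read from lists of IFT, BBSome, motor, transition zone and regulatory genes. Of 44 such genes, 43 were tested. In *daf-1* vs. double mutant, 25 of 43 were DEGs higher in *daf-1*, where 11.2% of all entries were, and 0 were lower (2 at an unadjusted p below 0.05 in limma), with a median of 1.28. At any size 28 were higher and 2 lower past the adjusted threshold, where 37.1% of all entries passed. In double mutant vs. N2, 11 of 43 were DEGs, all lower in the double mutant (5.34% of entries), with a median of -1.01. Some of the DEGs, among them *ift-139*, *bbs-2* and *dyf-13*, were below 0.5 FPKM in double mutant batches 1 and 2. In the 8 libraries such genes passed the filter through *daf-1* and N2 alone, which favours a lower double mutant in the counts of both comparisons. In *daf-1* vs. N2 there was 1 DEG, higher in *daf-1* (6.27% of entries), with a median of 0.18 (-0.15 after quantile normalisation). With all 9 libraries these numbers became 0, 1 (higher) and 1 (higher), and the median of *daf-1* vs. double mutant was 0.72. Without double mutant replicate 1 there was 1 DEG of 43 in *daf-1* vs. double mutant (3.55% of entries), and without *daf-1* replicate 3 there were 7 (6.78% of entries). Batch 3 against batches 1 and 2 gave 0 DEGs in limma, 33 of 43 genes higher at an unadjusted p below 0.05 (17.2% of entries), and a median of 0.96, and with the 8 libraries 11 of 43 (9.43% of entries) and a median of 0.55.

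By role, DEGs in *daf-1* vs. double mutant, again beside 11.2% of all entries, were 2 of 4 other IFT-A genes, 6 of 9 IFT-B genes, 2 of 5 motor subunits, 4 of 6 BBSome genes, 7 of 13 transition zone and basal body genes and 4 of 5 kinases, small GTPases and tubby. The limit set by the filter holds for these counts too. The best measured was *klp-11*, a subunit of the heterotrimeric kinesin that starts the outward journey, with 15.5, 16.998 and 19.6 FPKM in *daf-1*, against 5.78, 7.07 and 24.9 FPKM in the double mutant and 11.8, 14.5 and 21.9 FPKM in N2. It rose by 1.40 ± 0.24 in *daf-1* vs. double mutant (limma adjusted p = 0.00665) and fell by 1.25 in double mutant vs. N2 (limma adjusted p = 0.0102), but neither passed with all 9 libraries (0.76 and -0.61, limma adjusted p = 0.337 and 0.623). Its lowest libraries were again double mutant batches 1 and 2, and batch 3 was the highest of each genotype.

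The largest difference among these genes in *daf-1* vs. double mutant was that of the entry joining *grd-12* with *xbx-1*, a dynein light intermediate chain, at 2.49 ± 0.51 (limma adjusted p = 0.0100), which was 1.47 with all 9 libraries (limma adjusted p = 0.302). In double mutant vs. N2 the ciliary kinase *dyf-18* fell by 2.03 (limma adjusted p = 0.0118) and the transition zone gene *nphp-1* by 1.72 (limma adjusted p = 0.0131), and with all 9 libraries neither passed (-1.23 and -0.96, limma adjusted p = 0.404 and 0.506). The RFX gene *daf-19* itself had 13.5, 15.1 and 16.1 FPKM in *daf-1*, against 10.36, 9.45 and 17.4 FPKM in the double mutant and 13.9, 14.1 and 17.9 FPKM in N2. It rose by 0.57 in *daf-1* vs. double mutant (limma adjusted p = 0.0189) and fell by 0.61 in double mutant vs. N2 (limma adjusted p = 0.0238), both short of 2-fold. With all 9 libraries neither passed (0.31 and -0.34, limma adjusted p = 0.386 and 0.528).

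A pair of genes of outward transport had another order of libraries. *dyf-3*, an IFT-B component, had 4.16, 5.86 and 5.05 FPKM in *daf-1*, against 4.66, 4.36 and 6.49 FPKM in the double mutant and 1.64, 2.29 and 2.61 FPKM in N2. Both mutants lay wholly above N2, by 1.13 ± 0.21 for *daf-1* (limma adjusted p = 0.00901) and 0.99 ± 0.23 for the double mutant (limma adjusted p = 0.0230), and with all 9 libraries both differences passed as DEGs (1.13 and 1.16, limma adjusted p = 0.0256 and 0.0305). *osm-3*, the kinesin of the distal segment, had 1.78, 2.23 and 1.84 FPKM in *daf-1*, against 0.987, 1.11 and 2.36 FPKM in the double mutant and 0.762, 0.838 and 0.961 FPKM in N2. It was higher in *daf-1* than in N2 by 0.99 ± 0.21 (limma adjusted p = 0.0147), just under 2-fold, and with all 9 libraries the difference was again 0.99 but no longer passed (limma adjusted p = 0.0740).

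Similarity to the 10 genes was described by the correlation of log2(FPKM + 0.25) over the 9 libraries with the mean of the 9 genes that had an entry of their own, scaled per gene. Of the 37 other ciliary genes with an entry of their own, 33 had r of at least 0.8, against 15.4% of 11863 other entries. Of 7 in a joined entry, 2 did. The 5 joined entries below that value, those of *bbs-5*, *dyf-6*, *hyls-1*, *ift-43* and *klp-20*, lay between 26.3 and 76.9 FPKM, a level that belongs to all gene names of an entry together. Outside the lists, the closest of the 11863 entries were 2 cadherin family genes, *cdh-9* and *cdh-5* (r = 0.997 each), followed by *slt-1*, a Slit guidance ligand (r = 0.996), B0393.5 (r = 0.994), *stn-2*, a syntrophin (r = 0.994), and T23F6.5 (r = 0.994). *cdh-9* had 5.98, 6.01 and 8.12 FPKM in *daf-1*, against 1.12, 1.77 and 8.65 FPKM in the double mutant and 3.49, 3.69 and 8.84 FPKM in N2. At this higher level, double mutant batches 1 and 2 were again lowest, and batch 3 was the highest of each genotype. Of the 11863 entries, 9.82% had r of at least 0.9, so that the pattern was shared by many genes.

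Markers of cell types were read the same way. Of the 12 ciliated sensory markers 9 were tested, and 5 were DEGs higher in *daf-1* than in the double mutant (median 1.15), where 11.2% of all entries were. Among them were the tubulins *tbb-4* at 1.51 and *tba-6* at 1.86 and the G protein subunit *odr-3* at 1.39. The summed level of the 12 markers was 60.4 to 65.5 FPKM in *daf-1*, against 54.3 to 70.1 FPKM in the double mutant and 58.6 to 66.6 FPKM in N2, most of it from *odr-4*, which was at 36.1 to 45.0 FPKM in every library. By the correlation with the ciliary transport genes used above, 6 of 10 ciliated sensory markers had r of at least 0.8. *osm-10* had r = 0.13, and *odr-4* ran the other way (r = -0.86). Of 17 pan-neuronal markers 4 were DEGs higher in *daf-1* than in the double mutant (median 0.47), again beside 11.2% of all entries, and none was at 0 in all libraries. With all 9 libraries 0 of 10 ciliated sensory and 0 of 17 pan-neuronal markers were such DEGs in limma (0 and 0 were higher at an unadjusted p below 0.05), with medians of 0.52 and 0.19. Of all entries 0.64% were then such DEGs, and 7.64% were higher at an unadjusted p below 0.05 in limma.

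Markers of other tissues moved with the ciliary genes as well. By the correlation used above, 10 of 14 epidermis and molting markers and 4 of 5 amphid and phasmid glia markers had r of at least 0.8. Of 14 epidermis and molting markers, 10 were DEGs higher in *daf-1* than in the double mutant (median 1.74, 11.2% of all entries). In double mutant vs. N2, 10 were DEGs lower in the double mutant (median -1.60, 5.34% of all entries). Both numbers were 10 after quantile normalisation as well, where 860 and 633 of 13751 entries were such DEGs. The summed level of these markers was 764 to 892 FPKM in *daf-1*, against 233, 270 and 1077 FPKM in double mutant batches 1, 2 and 3 and 609 to 1029 FPKM in N2. Of 5 amphid and phasmid glia markers 2 were DEGs higher in *daf-1* than in the double mutant (11.2% of all entries), with sums of 17.1 to 17.9 FPKM in *daf-1*, 8.23 to 13.7 FPKM in the double mutant and 9.81 to 14.4 FPKM in N2. In limma with all 9 libraries 0 of 14 epidermis and molting markers were DEGs in either comparison (2 higher in *daf-1* and 3 lower in the double mutant at an unadjusted p below 0.05), with medians of 1.15 and -0.87, and 0 of 5 glia markers were DEGs in *daf-1* vs. double mutant (1 higher at an unadjusted p below 0.05). Of all entries 0.64% were then DEGs higher in *daf-1*, and 0.489% were DEGs lower in the double mutant than in N2. At an unadjusted p below 0.05 in limma these were 7.64% and 848 of 13907. The medians of the remaining lists in *daf-1* vs. double mutant were 0.64 for muscle, 0.51 for sperm, 0.26 for embryonic and 0.15 for intestine markers. The embryonic list was mixed, with correlations with the ciliary transport genes from -0.85 (*pal-1*) to 0.90 (*vab-7*).

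Germ line and oocyte markers ran the other way. All 14 were past the adjusted threshold and lower in *daf-1* than in the double mutant (19.3% of entries were), with a median of -0.45 on the log2 scale (-0.24 after quantile normalisation). In limma with all 9 libraries 0 of 14 passed (5 were lower at an unadjusted p below 0.05), with a median of -0.28. Of all 13907 entries then tested, 119 passed as lower, and 1803 were lower at an unadjusted p below 0.05 in limma. The sum of the germ line and oocyte markers was 3515 to 3827 FPKM in *daf-1*, against 5367, 4936 and 3635 FPKM in double mutant batches 1, 2 and 3 and 4140 to 4903 FPKM in N2. In this sum, batch 3 of the double mutant lay within the *daf-1* range, apart from batches 1 and 2 of its own genotype. For the ciliary transport genes, that library lay apart from those batches too, but beside batch 3 of both *daf-1* and N2. Their summed level was 17.8 FPKM in double mutant batch 3, against 17.5 FPKM in *daf-1* batch 3 and 17.4 FPKM in N2 batch 3. The part of the germ line, epidermis, molting and glia in the differences of the ciliary genes was not tested.

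**Figure D4:**
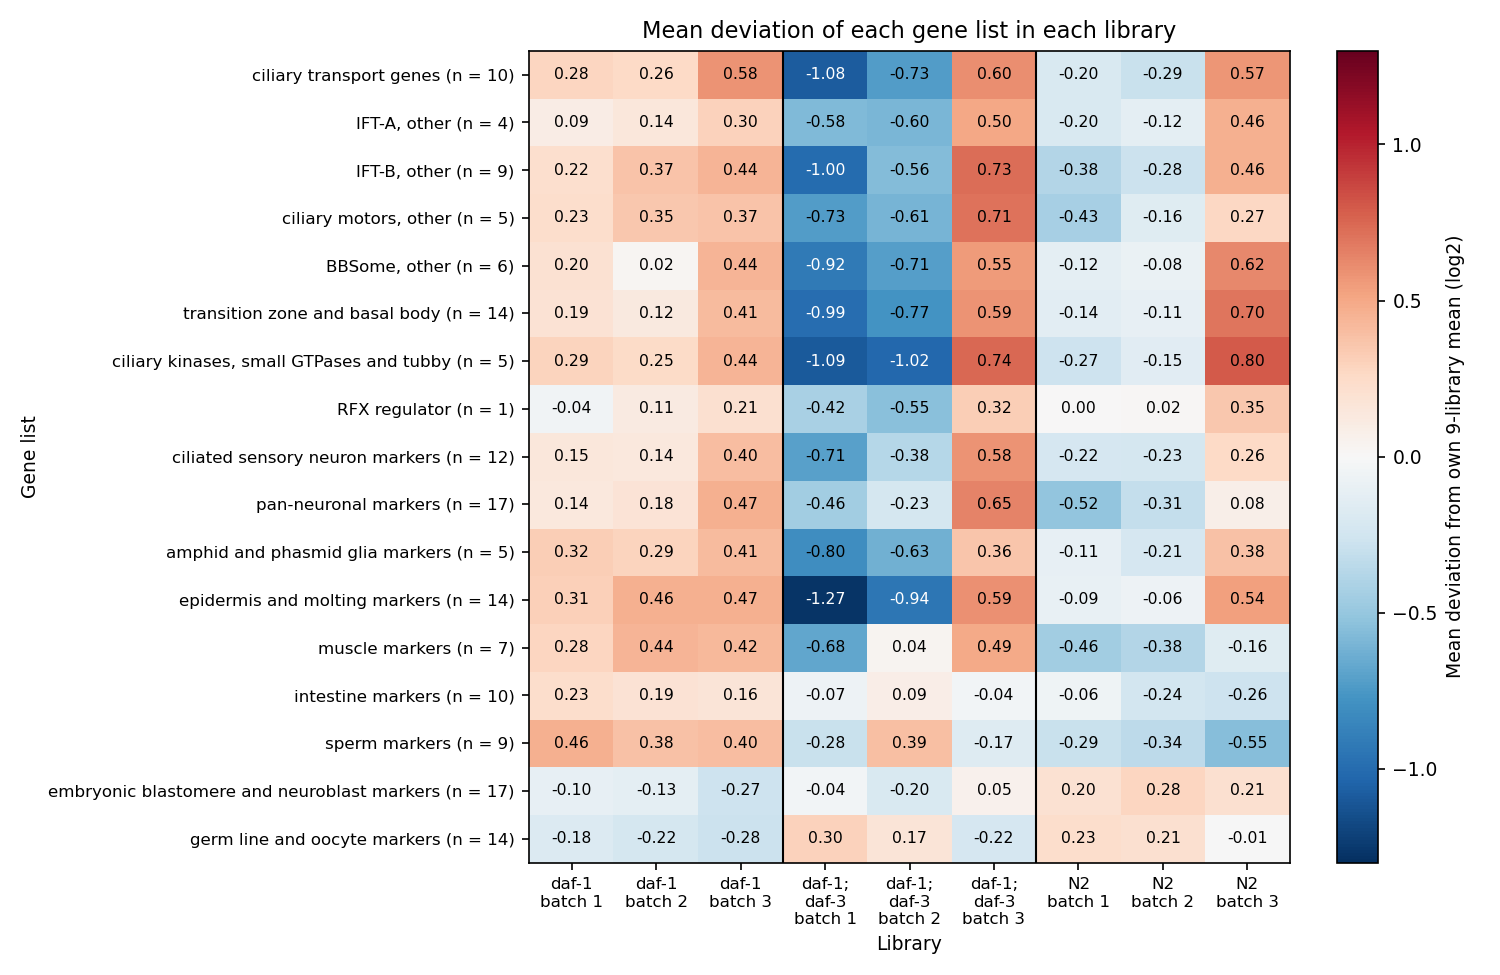
Mean deviation (log2) of each gene list from its genes' own mean over the 9 libraries, with *daf-1*, the double mutant and N2 libraries from left to right and the number of entries in each row label. The ciliary transport genes are at -1.08 and -0.73 in double mutant batches 1 and 2 and at 0.58, 0.60 and 0.57 in the batch 3 libraries of *daf-1*, the double mutant and N2.

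Values of 3 genes carry a further limit, since no source states that fragments were counted by strand. Exons of *che-11*, *osm-1* and *osm-6* share 50, 45 and 33 bases with the exons of a protein-coding gene on the opposite strand, which is at most 2.19% of their exonic bases. Of these neighbours, R31.2 next to *osm-6* was at 85.5 to 125 FPKM, C27A7.3 next to *che-11* at 0.783 to 1.49 FPKM and K08B5.2 next to *osm-1* at 2.93 to 5.38 FPKM. The part of their reads in the values of these genes was not tested.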

How the data were processed

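RNA of 9 whole-worm populations, 3 per genotype, was analysed as 1 table. The authors trimmed reads with Trim Galore 0.4.0, aligned them to WBcel235 with TopHat2 2.0.12 and estimated FPKM with Cufflinks, and these FPKM values are what was deposited, 1 column for each library and 40313 entries. Entries that name no gene (186, 0.0502 to 0.257% of a library's FPKM total) were left out. The table holds no read counts and read depth was not analysed here, so the only error given is the spread between libraries of separate worm populations. Columns of other samples numbered 0.

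Values were tested as log2(FPKM + 0.25) with limma 3.58.1 in R 4.3.3 (empirical Bayes with a trend, Benjamini-Hochberg over all tested entries), with the 3 genotypes in 1 fit and no block, after *daf-1*; *daf-3* (double mutant) replicate 3 was left out as in the study. An entry needed 0.5 FPKM in 2 libraries, which left 13751 entries, and 13907 with 9 libraries. DEGs had an adjusted p below 0.05 and at least 2-fold. The script was checked on simulated data. Titles give the batch, and the pairing rests on that. Deviations of same-numbered libraries correlated at 0.0868 to 0.520 with all 9 libraries and at -0.0567 to 0.225 with 8, and differently numbered ones reached 0.315 and 0.0643.

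The 10 genes and all lists were chosen with earlier results of these data known. Named were the 10 genes, up to 4 genes of smallest p and the DEGs of the other ciliary and sensory lists, and the 6 entries most like the 10 genes. Of the listed genes 5 were matched through RefSeq locus tags, and positions come from the WBcel235 annotation. Alternatives were the libraries, block, pseudocount, filter, scaling, genotypes fitted and leaving out each replicate. The fits with batches 1 and 2 only, and the test of batch 3 against them, were added after seeing the data. Promoter motifs were not analysed here.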

Additional observations from a re-analysis of the deposited data

How the results depend on the processing

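Counts below are of DEGs. Over all 13751 entries and either direction, *daf-1* vs. double mutant had 1740, or 1153 with a pseudocount of 1 and 1388 after quantile normalisation. With all 9 libraries there were 163 of 13907, or 205 with the replicate block. Double mutant vs. N2 had 1224, or 826 with a pseudocount of 1, 1360 with 0.05, 1142 after quantile normalisation and 395 with all 9 libraries. *daf-1* vs. N2 had 993, or 671 with a pseudocount of 1 and 918 after quantile normalisation. In *daf-1* vs. double mutant, 7 of the 10 ciliary transport genes and 25 of the 43 others passed. These became 0 and 0 with all 9 libraries, with or without the replicate block, 1 and 6 with a pseudocount of 1, and 2 and 6 after quantile normalisation. Leaving out 1 library gave 0 to 8 and 1 to 29 (0 and 1 without double mutant replicate 1, 3 and 7 without *daf-1* replicate 3, 4 and 16 without *daf-1* replicate 2). In double mutant vs. N2, 1 and 11 passed, all lower in the double mutant. These became 0 and 1 with all 9 libraries with or without the block, 0 and 9 with the block in 8 libraries, 0 and 3 with a pseudocount of 1, 2 and 13 with 0.05, 0 and 6 without a filter, 0 and 12 after quantile normalisation, 0 and 3 with only the 2 genotypes compared, 0 and 5 with batches 1 and 2 only, and 0 and 3 with these and the block. These counts take either direction. The 1 gene with all 9 libraries and no block was *dyf-3*, higher in the double mutant, so that none of the 11 lower calls remained. Leaving out 1 library gave 0 to 1 and 0 to 11 (0 of the others without double mutant replicate 1, 3 without double mutant replicate 2, 7 without *daf-1* replicate 1 or N2 replicate 3). In *daf-1* vs. N2, 0 and 1 passed. The others became 2 with the block, a pseudocount of 0.05, median scaling or batches 1 and 2 only, and 0 with a pseudocount of 1 or quantile normalisation, and leaving out 1 library gave 0 to 1 (1 without N2 replicate 3) and 0 to 5 (0 without N2 replicate 1, 2 without *daf-1* replicate 1, 5 without N2 replicate 3). For batch 3 against batches 1 and 2, 0 and 0 passed, and 0 to 2 and 0 to 19 when 1 library was left out, the highest without *daf-1* replicate 3.

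Quantile normalisation moved the median of all entries in *daf-1* vs. N2 to -0.10, against 0.016 without it. It turned the sign of *daf-10* (-0.17), *osm-5* (-0.0936), *osm-6* (-0.34), *che-2* (-0.0384) and *che-3* (-0.31) in that comparison, of *osm-1* (-0.24) and *che-3* (-0.10) in *daf-1* vs. double mutant, and of *osm-1* (-0.064) in batch 3 against batches 1 and 2. None of these was past the threshold in either setting. *osm-1* turned to 0.0028 in *daf-1* vs. N2 with batches 1 and 2 only, with or without the block, and *osm-6* ran from -0.13 to 0.40 there when 1 library was left out. The cause was not tested. Apart from *daf-10* in *daf-1* vs. double mutant and *che-11* against N2, the block in 8 libraries ended no call among the 10 genes. At levels near or below 1 FPKM and with 2 double mutant libraries, absence of a call does not show equal levels.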
